A study of Homo sapiens with 6 samples.

Results

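Genes for chromatin modifiers and remodellers were examined in RKO cells, an established human colorectal carcinoma line, cultured for 48 h in fasting medium (1% serum and 1 g/L glucose, 3 libraries) or in control medium (10% serum and 4.5 g/L glucose, 3 libraries). The cells of both groups were labelled wild type and come from this single line. Chemotherapy arms that the design also mentions were not analysed here. Genes were chosen by symbol, as families that write, erase or read methylation and acetylation on histones or DNA and as remodellers that use ATP. The deposited table lists 3511 genes and holds 40 of them, against 177 protein-coding genes that RefSeq has under the same symbols. The authors had tested 29845 genes and the table holds those with an adjusted p below 0.05, so each gene described had already been called by them and the other chromatin genes have no value here. Of the markers for the labelled cell type, 1 of 8 for colon epithelium (KRT18) was listed, and none of 5 for fibroblasts, 5 for white blood cells or 4 for endothelium was listed. A marker is listed for a called change and not for its expression, so these counts cannot tell which cells were present. The labels do not tell whether the 3 libraries of a group were separate cultures, and the spread behind every p-value may therefore be technical.

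DNA in the nucleus is wound around histones, and enzymes add methyl or acetyl groups to histone tails and methyl groups to cytosine. Methylation marks silent heterochromatin, Polycomb-repressed genes or active genes according to the residue, while acetylation usually marks open chromatin. Remodelling machines such as SWI/SNF spend ATP to slide or evict nucleosomes. Colorectal tumours often carry altered DNA methylation and mutations in remodeller subunits.

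Promoter windows from RefSeq (GRCh38.p14), running from 250 bases before to 50 bases after a transcription start, were available for 33 of the 40 genes, with 53 windows in all. They were searched on both strands for the E2F site (TTTCCCGC, TTTGGCGC or TTTCGCGC), the CHR element (TTTGAA or TTCGAA) and the CCAAT box (CCAAT), 3 motifs known from promoters of cell-cycle genes; none of these letter strings contains another. The E2F letters stood in 5 of the 33 genes (15.2%), against 3.30% of the 27305 genes in the promoter table. By direction, these were 4 of 17 genes that fell in fasting medium (23.5%) and 1 of 14 that rose (7.14%). Genes differ in their number of windows, and by window the shares were 9.43% of the 53 and 2.74% of all 35116. The reference is every gene with a promoter window and not the listed genes, so these shares do not mark the letters as particular to the chromatin genes. The CHR letters stood in 9.09% of the 33 genes, against 19.5% of all genes, and the CCAAT letters in 39.4%, against 39.7%. A stretch of 100 bases is shown for each of the 5 genes with the E2F letters, since HELLS, DNMT1 and NSD2 were among the largest falls and JMJD1C was the second largest rise. Capitals mark the E2F letters, and each stretch is written along the strand of its gene. The stretches lie at chr10:94545698-94545797 (plus strand) for HELLS, chr19:10194944-10195043 (minus strand) for DNMT1, chr4:1871270-1871369 (plus strand) for NSD2, chr6:18155172-18155271 (plus strand) for KDM1B and chr10:63466128-63466227 (minus strand) for JMJD1C.
HELLS: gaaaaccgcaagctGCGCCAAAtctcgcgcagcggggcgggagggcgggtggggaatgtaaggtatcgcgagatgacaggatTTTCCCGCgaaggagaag
DNMT1: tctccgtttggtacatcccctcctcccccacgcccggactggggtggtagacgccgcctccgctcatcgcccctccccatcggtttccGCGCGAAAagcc
NSD2: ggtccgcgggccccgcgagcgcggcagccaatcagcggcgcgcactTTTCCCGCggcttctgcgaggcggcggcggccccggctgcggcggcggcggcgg
KDM1B: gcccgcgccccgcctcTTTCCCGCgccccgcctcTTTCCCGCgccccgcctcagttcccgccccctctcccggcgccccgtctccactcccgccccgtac
JMJD1C: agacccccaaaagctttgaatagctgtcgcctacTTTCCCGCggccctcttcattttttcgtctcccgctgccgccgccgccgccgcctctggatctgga

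The match in DNMT1 began 2 bases before the start, those in HELLS 76 and 8 bases before it, and that in NSD2 77 bases before it. The matches in KDM1B lay farther out, 234 and 216 bases before the start, and the match in JMJD1C lay 216 bases before one of its annotated starts. These letters describe the windows, and no factor's binding was measured in these samples.

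Across the 40 genes the response to fasting medium went both ways, with 18 higher, 18 lower and 4 not past the threshold (limma on log2 of the normalized count plus 1, adjusted p below 0.05 over all 29845 genes). The shares that rose and fell were 45% each. Among the 3511 listed genes 49.7% were higher, 44.6% were lower and 94.3% passed in either direction, so the counts for the chromatin genes (90% passed) lay near the background and are no result about them. The 3 fasting libraries and the 3 control libraries did not overlap for any of the 40 genes, which held for 100% of the listed genes. The median log2 fold change, fasting over control, was −0.61 for the chromatin genes and 0.53 for all listed genes. Of the 40 values 22 were negative and 18 positive, and the smallest change in either direction was 0.57. The median therefore mainly tells which sign was slightly more frequent and is no typical shift. A change of at least 2-fold was reached by 3 risers and 7 fallers, 25% of the 40, against 46.4% of the listed genes. The largest rises were in HDAC9, JMJD1C and CHD2, and the largest falls in CBX5, HELLS, DNMT3B and DNMT1. In bulk RNA, fewer cells of a kind and less RNA per cell cannot be told apart.

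**Figure D1:**
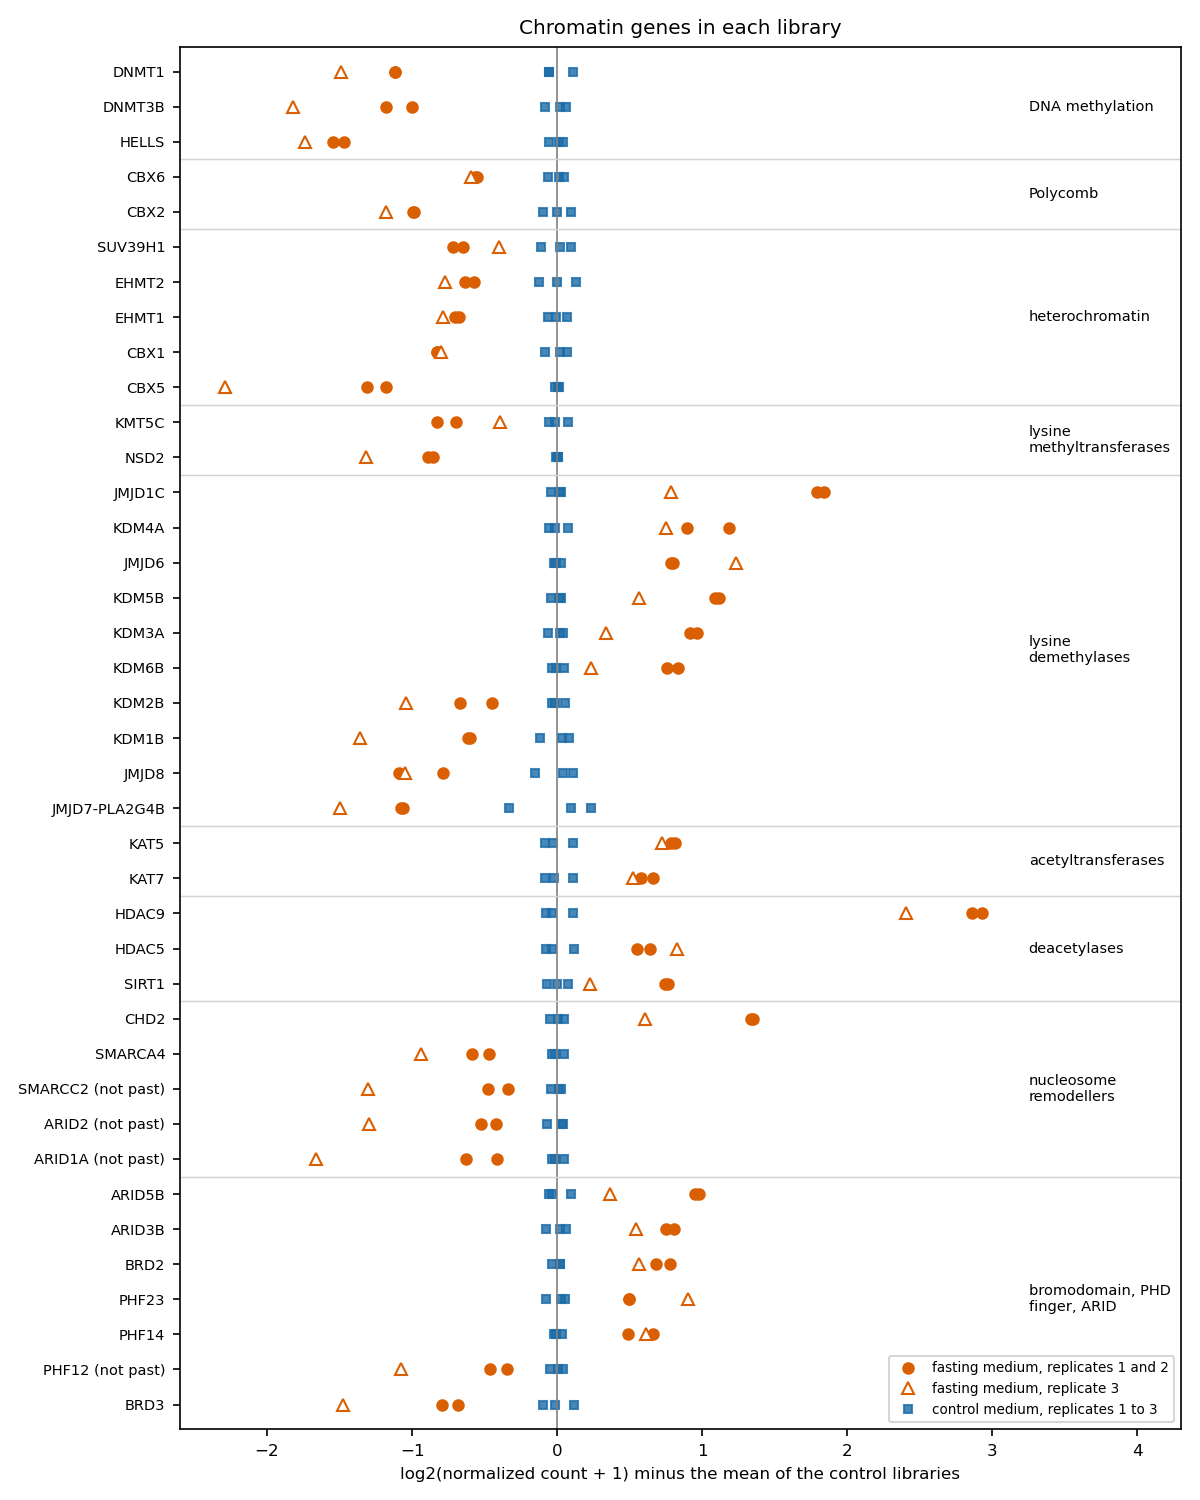
Chromatin genes by library, as log2(normalized count + 1) minus the mean of the control libraries, in 9 groups by role; circles and triangles are fasting libraries and squares are control libraries. All DNA methylation and heterochromatin genes lie left of their control libraries, all acetyltransferases and deacetylases lie right of them, and the triangle of fasting replicate 3 often stands apart from the circles.

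Fasting replicate 3 stood apart from the other fasting libraries in the table as a whole. The chi-square of counts per gene was 56.8 and 56.2 between fasting replicate 3 and the other fasting libraries, against 1.87 between fasting replicates 1 and 2 and 2.14 to 6.61 among control libraries. Over 2886 listed genes with at least 100 normalized counts, the difference of fasting replicate 3 from the mean of the other fasting libraries fell with transcript length (Spearman's rho −0.722, across genes of the same libraries). The chromatin genes have long transcripts, with a median of 5180.5 bases against 3365 for all listed genes, and 32 of the 40 were lower in fasting replicate 3 than in the others, with a median difference of −0.39 on the log2 scale. The difference ranged from −1.14 for ARID1A to 0.44 for JMJD6. Of the 2886 listed genes, 1376 were lower in fasting replicate 3, with a median difference of 0.03. Without fasting replicate 3, all 40 genes passed (18 higher, 22 lower), against 99.9% of the listed genes (50.2% higher, 49.8% lower), and the median log2 fold change was −0.44. Removal of each library's trend with length gave a median of −0.12 with 18 genes higher and 17 lower, against 84.1% of the listed genes past the threshold (44.3% higher, 39.8% lower). It brought the log2 fold change to −0.26 for SMARCA4, −0.39 for KDM2B, −0.41 for EHMT1 and −0.60 for BRD3, and to 0.35 for PHF23 and 0.51 for KAT5, nearer to 0 than in the values given in the following paragraphs. HELLS, DNMT3B, DNMT1 and CBX2 came to −1.29, −1.14, −0.89 and −0.81, also nearer to 0. JMJD1C came to 2.11, CBX1 to −1.06 and JMJD8 to −1.26, farther from 0. The removal brought HDAC5, KDM6B, KAT7, PHF14, ARID5B, KDM5B and CHD2 to between 1.02 and 1.77, farther from 0. It acts on every library, and so also takes out differences between the groups that go with length. Without fasting replicate 3 HDAC5, PHF14 and KAT7 were at 0.59, 0.57 and 0.62, close to their values with all libraries. Which setting is nearer to the truth was not tested.

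**Figure D2:**
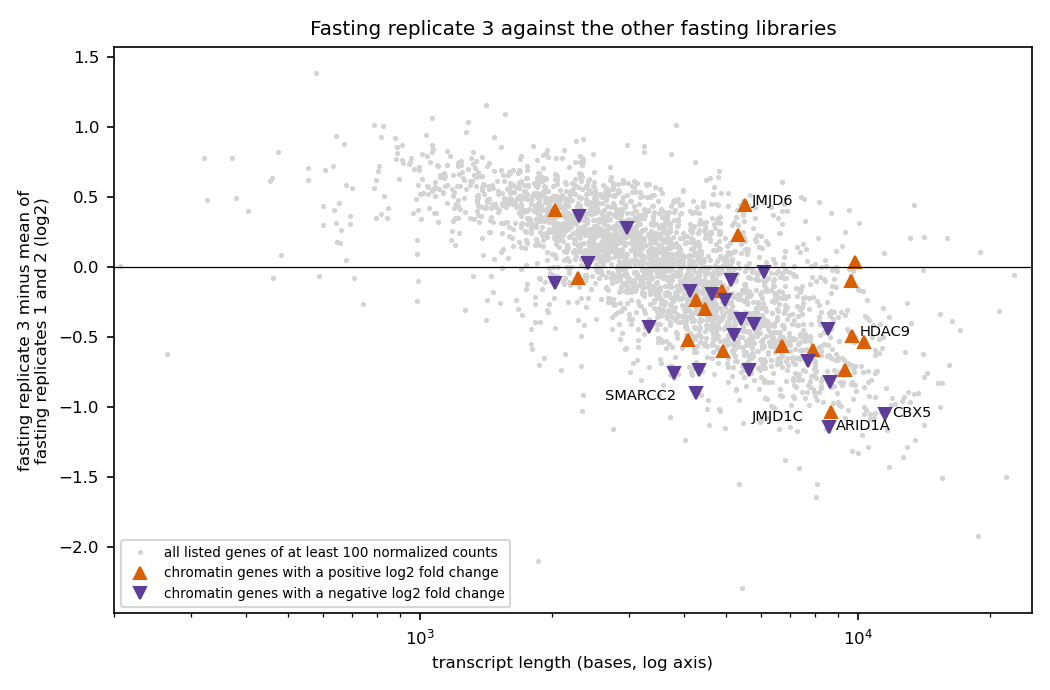
Difference of fasting replicate 3 from the mean of fasting replicates 1 and 2 (log2) against transcript length in bases (log axis), for listed genes of at least 100 normalized counts (dots) and for the chromatin genes (triangles). The dots fall with length, and ARID1A, CBX5 and JMJD1C lie lowest among the chromatin genes at −1.14, −1.05 and −1.03.

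The scaling also bore on the rises. When each library was scaled to its total reads in the listed genes (4187326 to 5071791 in fasting libraries and 4017618 to 5602177 in control libraries), the median of all listed genes moved by −0.47 relative to the authors' size factors. No chromatin gene changed sign, but 3 of the 18 risers, among them HDAC9 and JMJD6, passed in edgeR's quasi-likelihood test, beside 21 fallers. Of the listed genes 74.4% passed there, 25% higher and 49.4% lower. With edgeR's RLE scaling 18 chromatin genes were higher and 13 lower (85.4% of the listed genes passed, 50.1% higher and 35.2% lower), and in limma without moderation of the variance 10 were higher and 9 lower (56.4% of the listed genes passed, 32.3% higher and 24.1% lower). The rises given in the following paragraphs are therefore relative to the authors' scaling, and those of the other 15 risers did not pass under total-read scaling. That scaling assumes equal totals over genes that had all been called as changed, since the reads of unlisted genes are unknown. It shows how far the calls depend on scaling, and which scaling is nearer to the truth was not tested.

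Of 8 annotated genes for DNA methylation 3 were listed, and all 3 were lower in fasting medium, with a median log2 fold change of −1.33. Among all listed genes 44.6% were lower, and 3 genes are too few to describe the process. HELLS (ENSG00000119969), a remodeller needed for DNA methylation of repeats, had 491, 518 and 429 normalized counts in fasting libraries, against 1379, 1474 and 1446 in control libraries. All 3 fasting libraries lay below every control library, and fasting replicate 3 was the lowest. The fall was 2.99-fold (log2 fold change −1.58 ± 0.10 SE, limma adjusted p = 5.96e-05). DNMT1 (ENSG00000130816), which copies methylation onto newly made DNA, had 2814, 2825 and 2178 normalized counts in fasting libraries, against 5898, 5878 and 6606 in control libraries. The groups did not overlap, and fasting replicate 3 was the lowest library. DNMT1 fell 2.36-fold (log2 fold change −1.24 ± 0.12 SE, limma adjusted p = 0.000438). DNMT3B (ENSG00000088305), which sets new methylation, had 151, 170.5 and 96.3 normalized counts in fasting libraries, against 347, 358 and 324 in control libraries. Its fasting replicate 3 was again the lowest, and the log2 fold change of −1.33 ± 0.21 SE (limma adjusted p = 0.00352) was −1.09 without that library. Of the other fixed genes of this process, DNMT3A, TET1, TET2 and TET3 were not listed.

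Of 7 annotated heterochromatin genes 5 were listed, and all 5 were lower as well, with a median log2 fold change of −0.72. This count too stands against 44.6% lower among all listed genes. CBX5 (ENSG00000094916), the alpha form of the heterochromatin protein that binds methylated histone tails, had 1029.5, 941 and 476 normalized counts in fasting libraries, against 2305, 2342 and 2354 in control libraries. The control libraries lay close together, and fasting replicate 3 lay well below the other fasting libraries. The log2 fold change of CBX5 was −1.59 ± 0.26 SE (limma adjusted p = 0.00478), and it was −1.24 without fasting replicate 3 and −0.82 with the length trend removed; its transcript of 11528 bases is the longest of the 40. CBX1, the beta form of the same protein, averaged 1236 ± 15.8 normalized counts in fasting medium and 2184 ± 114 in control medium (SD, n = 3 each), a log2 fold change of −0.82 ± 0.08 SE (limma adjusted p = 0.000404). The fasting libraries of CBX1 lay close together, fasting replicate 3 included. EHMT1 and EHMT2, which encode partner methyltransferases for a silencing mark, fell by 0.72 and 0.66 on the log2 scale (limma adjusted p = 0.00077 and 0.00331). SUV39H1, a methyltransferase of constitutive heterochromatin, averaged 166 ± 19.7 normalized counts in fasting medium and 249.9 ± 17.8 in control medium (SD, n = 3 each) and fell by 0.59 on the log2 scale (limma adjusted p = 0.0183). Its call was lost on leaving out any library other than fasting replicate 3 (adjusted p 0.0508 to 0.106), and 20.3% of its exon bases lie opposite another annotated gene.

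**Figure D3:**
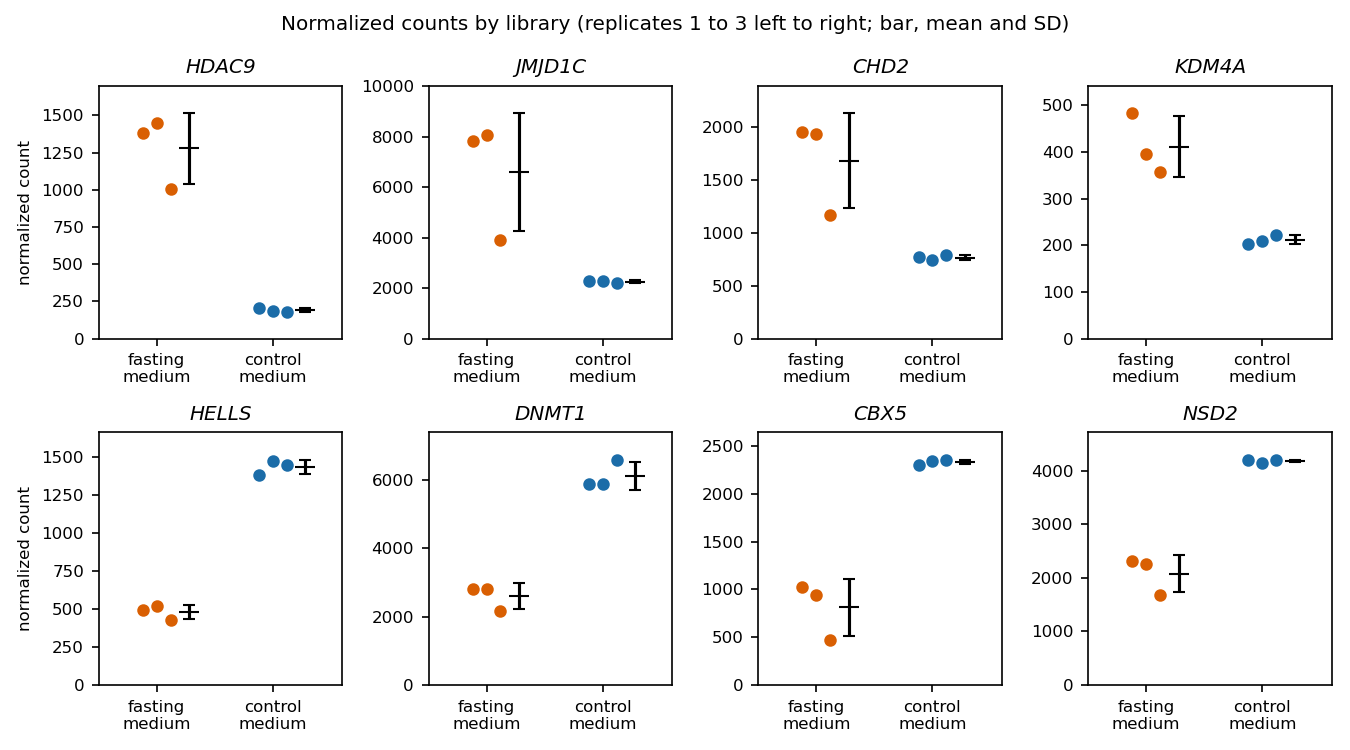
Normalized counts of 8 genes in each library, fasting medium on the left of each panel and control medium on the right; the bar beside each group is its mean and SD over 3 libraries, and every axis starts at 0. HDAC9, JMJD1C, CHD2 and KDM4A lie higher in all fasting libraries, and HELLS, DNMT1, CBX5 and NSD2 lie lower in all of them.

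The other lysine methyltransferases and the Polycomb genes changed in smaller numbers. Of 35 annotated methyltransferases outside the heterochromatin group 2 were listed, and both fell, against 44.6% lower among all listed genes. NSD2 (ENSG00000109685), which methylates histones in transcribed genes, had 2314, 2253 and 1679 normalized counts in fasting libraries, against 4199, 4154 and 4202 in control libraries. Fasting replicate 3 was the lowest and no fasting library reached a control library. The log2 fold change of NSD2 was −1.02 ± 0.13 SE (limma adjusted p = 0.00134), and it was −0.39 with the length trend removed. KMT5C, which trimethylates a lysine of histone tails in heterochromatin, averaged 177 ± 27.9 normalized counts in fasting medium and 274 ± 13.0 in control medium (SD, n = 3 each). Its log2 fold change of −0.64 ± 0.14 SE (limma adjusted p = 0.0172) lost its call on leaving out any library other than fasting replicate 3 (adjusted p 0.0611 to 0.0982). KMT2A, KMT2D and KMT5A were not listed.

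Among the Polycomb genes, whose products keep developmental genes silent, 3 of 14 annotated were listed. CBX2 and CBX6, chromodomain proteins that can join the PRC1 complex, both fell. CBX2 (ENSG00000173894) had 519, 516 and 454 normalized counts in fasting libraries, against 963, 1029 and 1101 in control libraries. Every fasting library lay below every control library, and the fall was 2.08-fold (log2 fold change −1.05 ± 0.10 SE, limma adjusted p = 0.000353). CBX6 had the smallest change of the 40, a log2 fold change of −0.57 ± 0.07 SE (limma adjusted p = 0.00166), which was −0.14 and not past the threshold with the length trend removed (adjusted p = 1). Without fasting replicate 3 the value for CBX6 was −0.56. EZH2, SUZ12 and EED, the core of the PRC2 complex, were not listed.

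The lysine demethylases and other JmjC proteins were the largest group, with 10 listed of 27 annotated, and split into 6 that rose and 4 that fell (median log2 fold change 0.67). Among all listed genes 49.7% were higher and 44.6% were lower, so this split is a description and no result about the group. JMJD1C (ENSG00000171988), a large JmjC protein, had 7820, 8056 and 3885 normalized counts in fasting libraries, against 2282, 2293 and 2194 in control libraries. Fasting replicate 3 lay well below the other fasting libraries but above every control library. The rise was 2.77-fold (log2 fold change 1.47 ± 0.26 SE, limma adjusted p = 0.00651); it was 1.81 on the log2 scale without fasting replicate 3, and 1.10 under total-read scaling, where it did not pass (edgeR adjusted p = 0.0666). KDM4A (ENSG00000066135), which removes methyl groups tied to silencing and to transcription, had 484, 395 and 356 normalized counts in fasting libraries, against 203, 209.6 and 223 in control libraries. All fasting libraries lay above the control libraries, and the log2 fold change was 0.94 ± 0.13 SE (limma adjusted p = 0.00226; 0.49 with edgeR adjusted p = 0.168 under total-read scaling). An annotated gene on the same strand shares 40.2% of the exon bases of KDM4A, and how reads there were assigned is not known. JMJD6 (ENSG00000070495), a JmjC lysyl hydroxylase, had 1517, 1501 and 2052 normalized counts in fasting libraries, against 868, 860.4 and 888 in control libraries. Here fasting replicate 3 was the highest library, and the log2 fold change of 0.94 ± 0.13 SE (limma adjusted p = 0.00207) also passed under total-read scaling (0.47, edgeR adjusted p = 0.022).

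KDM5B, which removes a methyl mark of active promoters, averaged 2132 ± 427 normalized counts in fasting medium and 1108 ± 30.3 in control medium (SD, n = 3 each). Its log2 fold change was 0.92 ± 0.15 SE (limma adjusted p = 0.00428) and 0.48 without a call under total-read scaling (edgeR adjusted p = 0.328). KDM6B, a demethylase that opposes Polycomb, averaged 2530.4 ± 532 normalized counts in fasting medium and 1633 ± 48.4 in control medium (SD, n = 3 each). KDM3A, a demethylase of a silencing mark, averaged 1167 ± 260.2 normalized counts in fasting medium and 687 ± 26.0 in control medium (SD, n = 3 each). KDM6B and KDM3A rose by 0.61 and 0.74 on the log2 scale (limma adjusted p = 0.0408 and 0.0218), but both calls were lost on leaving out any library other than fasting replicate 3 (adjusted p 0.119 to 0.173 for KDM6B and 0.0736 to 0.102 for KDM3A).

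The 4 fallers of this group included JMJD8 (ENSG00000161999), a JmjC protein of the endoplasmic reticulum, which had 142, 176 and 146 normalized counts in fasting libraries, against 313, 328 and 273 in control libraries. The groups were well apart, with a log2 fold change of −0.97 ± 0.13 SE (limma adjusted p = 0.00188), and 37.4% of its exon bases lie opposite STUB1, so that without strand its reads could not be told from those of that gene. KDM2B, a JmjC protein that brings a Polycomb complex to CpG islands, and KDM1B, a flavin-dependent demethylase, fell by 0.72 and 0.86 on the log2 scale (limma adjusted p = 0.0138 and 0.0304). Both calls were lost on leaving out any control library (adjusted p 0.0547 to 0.0766 for KDM2B and 0.0889 to 0.133 for KDM1B). JMJD7-PLA2G4B, a readthrough locus that shares exons with JMJD7 and PLA2G4B, averaged 10.4 ± 1.86 normalized counts in fasting medium and 25.5 ± 5.20 in control medium (SD, n = 3 each). Its log2 fold change of −1.21 ± 0.24 SE (limma adjusted p = 0.0129) lost its call without control replicate 2 (0.0745) or control replicate 3 (0.0812), and its reads cannot be assigned with certainty. By the domain annotation in the deposited table, 11 listed genes carry a JmjC domain, a set looked up after the values were seen. The pair outside the chosen symbols comprised HSPBAP1, with a log2 fold change of 1.51 (limma adjusted p = 0.000212), and RIOX1, a ribosomal oxygenase, at −0.55 (limma adjusted p = 0.0454). Of KDM1A and KDM7A, neither was listed.

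The acetyltransferases and deacetylases that were listed all rose, 2 of 13 and 3 of 18 annotated genes, against 49.7% higher among all listed genes. Under total-read scaling 0 of the 2 and 1 of the 3 passed, against 25% higher among all listed genes. HDAC9 (ENSG00000048052), a class IIa deacetylase, had 1379.9, 1447 and 1005 normalized counts in fasting libraries, against 204, 185 and 179 in control libraries. Every fasting library lay several-fold above every control library, although fasting replicate 3 was the lowest of them. This was the largest change of the 40, 6.65-fold (log2 fold change 2.73 ± 0.15 SE, limma adjusted p = 3.90e-05). It kept its call in all 20 alternatives, with a log2 fold change of 2.90 without fasting replicate 3, 3.43 with the length trend removed and 2.30 under total-read scaling (edgeR adjusted p = 0.000192). HDAC5, of the same class, averaged 1090.5 ± 108 normalized counts in fasting medium and 683 ± 48.8 in control medium (SD, n = 3 each), with a log2 fold change of 0.67 ± 0.10 SE (limma adjusted p = 0.00362). SIRT1, a deacetylase that uses NAD, averaged 735 ± 144 normalized counts in fasting medium and 486 ± 25.4 in control medium (SD, n = 3 each). Its log2 fold change of 0.58 ± 0.15 SE was close to the threshold (limma adjusted p = 0.0492), and the call was lost on leaving out any library other than fasting replicate 3 (adjusted p 0.121 to 0.217). The rises of HDAC5 and SIRT1 did not pass under total-read scaling (0.19 and 0.14 on the log2 scale, edgeR adjusted p = 0.592 and 1). HDAC1, HDAC2 and HDAC3 were not listed.

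KAT5, the catalytic subunit of the TIP60 acetyltransferase complex, averaged 174 ± 5.78 normalized counts in fasting medium and 102 ± 7.29 in control medium (SD, n = 3 each), with a log2 fold change of 0.77 ± 0.12 SE (limma adjusted p = 0.00325). KAT7, the acetyltransferase of complexes that act at replication origins and in genes, averaged 747 ± 35.6 normalized counts in fasting medium and 497 ± 34.0 in control medium (SD, n = 3 each), with a log2 fold change of 0.59 ± 0.09 SE (limma adjusted p = 0.00397). Fasting replicate 3 lay close to the other fasting libraries for both genes. Under total-read scaling KAT5 was at 0.30 and KAT7 at 0.12 on the log2 scale, neither past the threshold (edgeR adjusted p = 0.412 and 1). RNASEH2C lies opposite 38.6% of the exon bases of KAT5. EP300 and CREBBP were not listed.

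Of 29 annotated nucleosome remodellers 5 were listed, of which 1 rose, 1 fell and 3 did not pass. Among all listed genes 94.3% passed, 49.7% higher and 44.6% lower, and 5 genes are too few to describe the group. In all 5 the fasting replicate 3 value lay under those of fasting replicates 1 and 2, with a median difference of −0.82 on the log2 scale and a median transcript length of 8583 bases. CHD2 (ENSG00000173575), a chromodomain remodeller, had 1951, 1936 and 1166 normalized counts in fasting libraries, against 768, 739.6 and 791 in control libraries. All fasting libraries lay above the control libraries, with fasting replicate 3 nearest to them. CHD2 rose 2.14-fold (log2 fold change 1.10 ± 0.19 SE, limma adjusted p = 0.00656); it was at 1.34 without fasting replicate 3 and 0.68 without a call under total-read scaling (edgeR adjusted p = 0.196). An annotated gene on the same strand shares 10.2% of its exon bases. SMARCA4, the ATPase of SWI/SNF complexes, had 4340.2, 3995 and 3138 normalized counts in fasting libraries, against 5867, 5959 and 6200 in control libraries. All fasting libraries lay below the control libraries, and fasting replicate 3 was the lowest. Its log2 fold change was −0.66 ± 0.12 SE (limma adjusted p = 0.00916), and the call was lost without control replicate 3 (adjusted p = 0.0552).

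The other 3 remodeller genes, all SWI/SNF subunits, did not pass with all libraries. ARID1A, a DNA-binding subunit often mutated in cancer, had 1333, 1149 and 560 normalized counts in fasting libraries, against 1839, 1759 and 1736 in control libraries. Its log2 fold change was −0.90 ± 0.29 SE (limma adjusted p = 0.123). Leaving out fasting replicate 3 gave −0.52 and a call (adjusted p = 2.21e-05). ARID2 had a log2 fold change of −0.75 ± 0.21 SE (limma adjusted p = 0.0747) with all libraries and −0.47 (adjusted p = 5.04e-05) without fasting replicate 3. SMARCC2 had a log2 fold change of −0.71 ± 0.23 SE (limma adjusted p = 0.134) with all libraries and −0.41 (adjusted p = 4.26e-05) without fasting replicate 3. In each of the 3 genes fasting replicate 3 was the lowest library, the groups did not overlap, and leaving that library out made the difference smaller. ARID1A and ARID2 also passed without fasting replicate 1 (adjusted p = 0.0472 and 0.0446). With the length trend removed ARID1A was at −0.27, ARID2 at −0.11 and SMARCC2 at −0.52 on the log2 scale, none past the threshold (adjusted p = 1, 1 and 0.214).

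**Figure D4:**
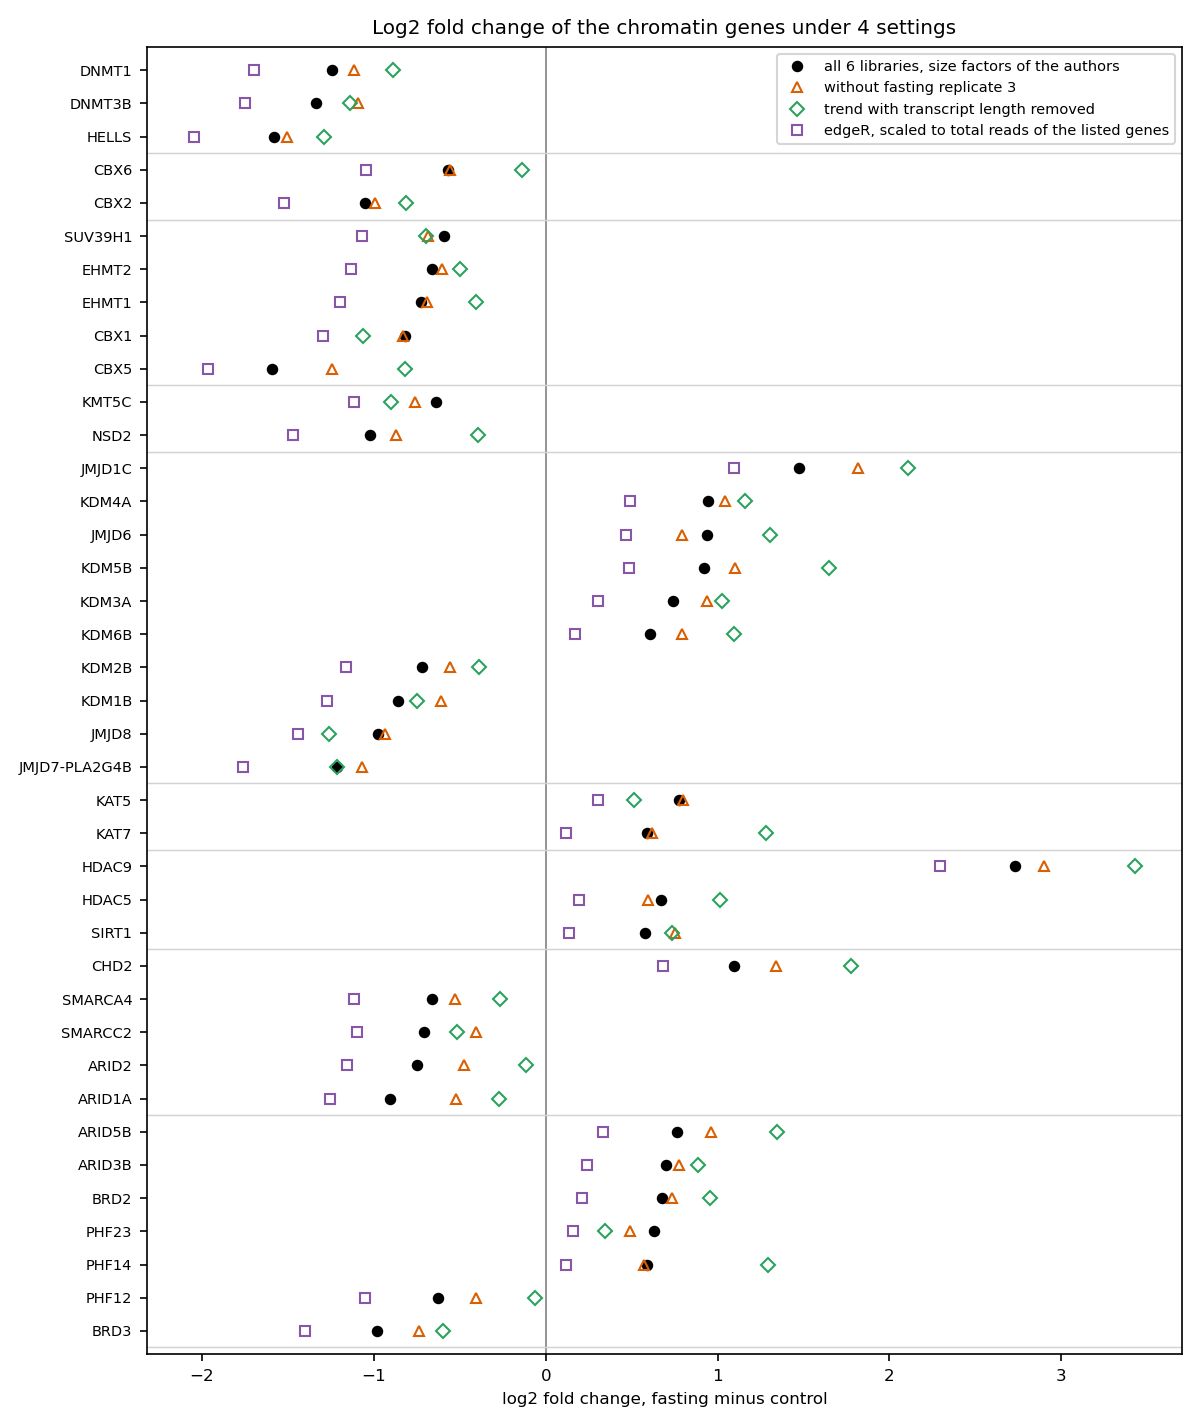
Log2 fold change of the chromatin genes, fasting over control, with all 6 libraries, without fasting replicate 3, with the length trend removed and under total-read scaling. No gene shown crosses 0, and total-read scaling moves each to the left, by about as much as the median of all listed genes (−0.47).

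Of the bromodomain, PHD finger and ARID proteins, which read acetylated or methylated histones or bind DNA, 7 of 26 annotated were listed, and 5 rose, 1 fell and 1 did not pass. Among all listed genes 49.7% were higher and 44.6% were lower, and 7 genes are too few to describe the group. BRD2 and BRD3, closely related BET proteins that bind acetylated histones, moved in opposite directions. BRD2 averaged 4141 ± 312 normalized counts in fasting medium and 2588 ± 54.3 in control medium (SD, n = 3 each), with a log2 fold change of 0.68 ± 0.08 SE (limma adjusted p = 0.00134). Per kilobase of transcript BRD2 had the highest fasting level of the 40 genes, at 846 normalized counts, whereas DNMT1 had the highest control level, at 1133. BRD3 (ENSG00000169925) had 1205, 1115 and 696 normalized counts in fasting libraries, against 1807, 1912 and 2092 in control libraries. Fasting replicate 3 was the lowest library, and the groups did not overlap. The log2 fold change of BRD3 was −0.98 ± 0.20 SE (limma adjusted p = 0.0128), and the call was lost without control replicate 2 (0.0516) or control replicate 3 (0.0743); 18.6% of its exon bases lie opposite BRD3OS.

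ARID3B, a DNA-binding protein, averaged 348 ± 32.7 normalized counts in fasting medium and 213 ± 10.6 in control medium (SD, n = 3 each), with a log2 fold change of 0.70 ± 0.11 SE (limma adjusted p = 0.00427). ARID5B, PHF14 and PHF23 rose by 0.76, 0.59 and 0.63 on the log2 scale (limma adjusted p = 0.0268, 0.0046 and 0.0133). The call of ARID5B was lost on leaving out any library other than fasting replicate 3 (adjusted p 0.0736 to 0.126), and that of PHF23 on leaving out any control library (adjusted p 0.0548 to 0.0765). None of the 5 rises of this group, that of BRD2 included, passed under total-read scaling. PHF12, which belongs to a co-repressor complex, had a log2 fold change of −0.63 ± 0.18 SE and did not pass (limma adjusted p = 0.0764), but it passed without fasting replicate 3 (−0.41, adjusted p = 0.000233) and without fasting replicate 1 (−0.77, adjusted p = 0.0426). With the length trend removed PHF12 was at −0.06 (adjusted p = 1).

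Genes of the same complexes that the symbols leave out were counted in 7 lists holding 149 genes. Of these 38 were listed, 15 rose, 22 fell and 1 (PHC1, limma adjusted p = 0.0584) did not pass, against 49.7% of all listed genes higher and 44.6% lower. Under total-read scaling 5 of the 15 risers passed, where 25% of all listed genes were higher and 49.4% lower. The lists hold few listed genes and were chosen with earlier results of these data known, so their counts are a description. Of 17 histone chaperones, which load histones onto DNA, 10 were listed, of which 9 fell and 1 rose, against the same 44.6% lower and 49.7% higher among all listed genes (median log2 fold change −0.78, and 0.53 for all listed genes). CHAF1A, the large subunit of the chaperone that loads histones behind the replication fork, averaged 553 ± 25.4 normalized counts in fasting medium and 1792 ± 77.9 in control medium (SD, n = 3 each), a log2 fold change of −1.70 (limma adjusted p = 2.60e-05). NASP, another histone chaperone, fell by 0.96 on the log2 scale (limma adjusted p = 0.000181). UHRF1, which guides DNMT1 to newly made DNA, averaged 1938 ± 205 normalized counts in fasting medium and 5559 ± 366 in control medium (SD, n = 3 each), a log2 fold change of −1.52 (limma adjusted p = 9.39e-05), beside −1.24 for DNMT1 itself. In the list of DNA and arginine methylation that holds UHRF1, 4 of 16 were listed, of which 3 fell and 1 rose; PRMT6, an arginine methyltransferase, fell by 0.77 on the log2 scale (limma adjusted p = 0.00106).

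The list for MLL/COMPASS complexes and the DOT1L methyltransferase held 6 listed genes of 16, and all 6 fell. Among all listed genes 44.6% were lower. PSIP1, which tethers MLL complexes to chromatin, had a log2 fold change of −0.91 (limma adjusted p = 0.000279). DOT1L had a log2 fold change of −0.78 (limma adjusted p = 0.000585), which was −0.23 and not past the threshold with the length trend removed (adjusted p = 0.268). Without fasting replicate 3 the value for DOT1L was −0.73. Of the acetylation complexes 7 of 26 genes were listed, and all 7 rose (median log2 fold change 0.86), against 49.7% of all listed genes. ING3, a subunit of the TIP60 complex that holds KAT5, averaged 682 ± 15.4 normalized counts in fasting medium and 255 ± 11.9 in control medium (SD, n = 3 each), a log2 fold change of 1.42 (limma adjusted p = 6.89e-05). MSL3, of an acetyltransferase complex, had a log2 fold change of 0.87 (limma adjusted p = 0.000556). ING3 and MSL3 passed under total-read scaling (edgeR adjusted p = 0.000363 and 0.0293), and the other 5 genes of that list did not.

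The Polycomb genes outside the chosen symbols went both ways, with 4 of 24 listed, 2 higher, 1 lower and 1 not past. For this and the following lists, the shares over all listed genes were 49.7% higher and 44.6% lower. RYBP, a PRC1 subunit, averaged 1412 ± 88.1 normalized counts in fasting medium and 606 ± 30.3 in control medium (SD, n = 3 each), a log2 fold change of 1.22 (limma adjusted p = 0.000123). RBBP7, a histone-binding protein shared by PRC2 and NuRD, had a log2 fold change of −0.76 (limma adjusted p = 0.00175). Of the co-repressor and NuRD list 2 of 19 were listed, RCOR2 at −0.92 (limma adjusted p = 0.00134) and MTA3 at 0.73 (limma adjusted p = 0.00456). Of the list for SWI/SNF, ISWI and INO80 subunits 5 of 31 were listed, of which 3 rose and 2 fell. The smallest p-values there belonged to DPF2, a SWI/SNF subunit, at 0.69 (limma adjusted p = 0.00163), and INO80C, an INO80 subunit, at 1.24 (limma adjusted p = 0.00738). MTA3 and DPF2 did not pass under total-read scaling (edgeR adjusted p = 0.236 and 0.332).

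**Figure D5:**
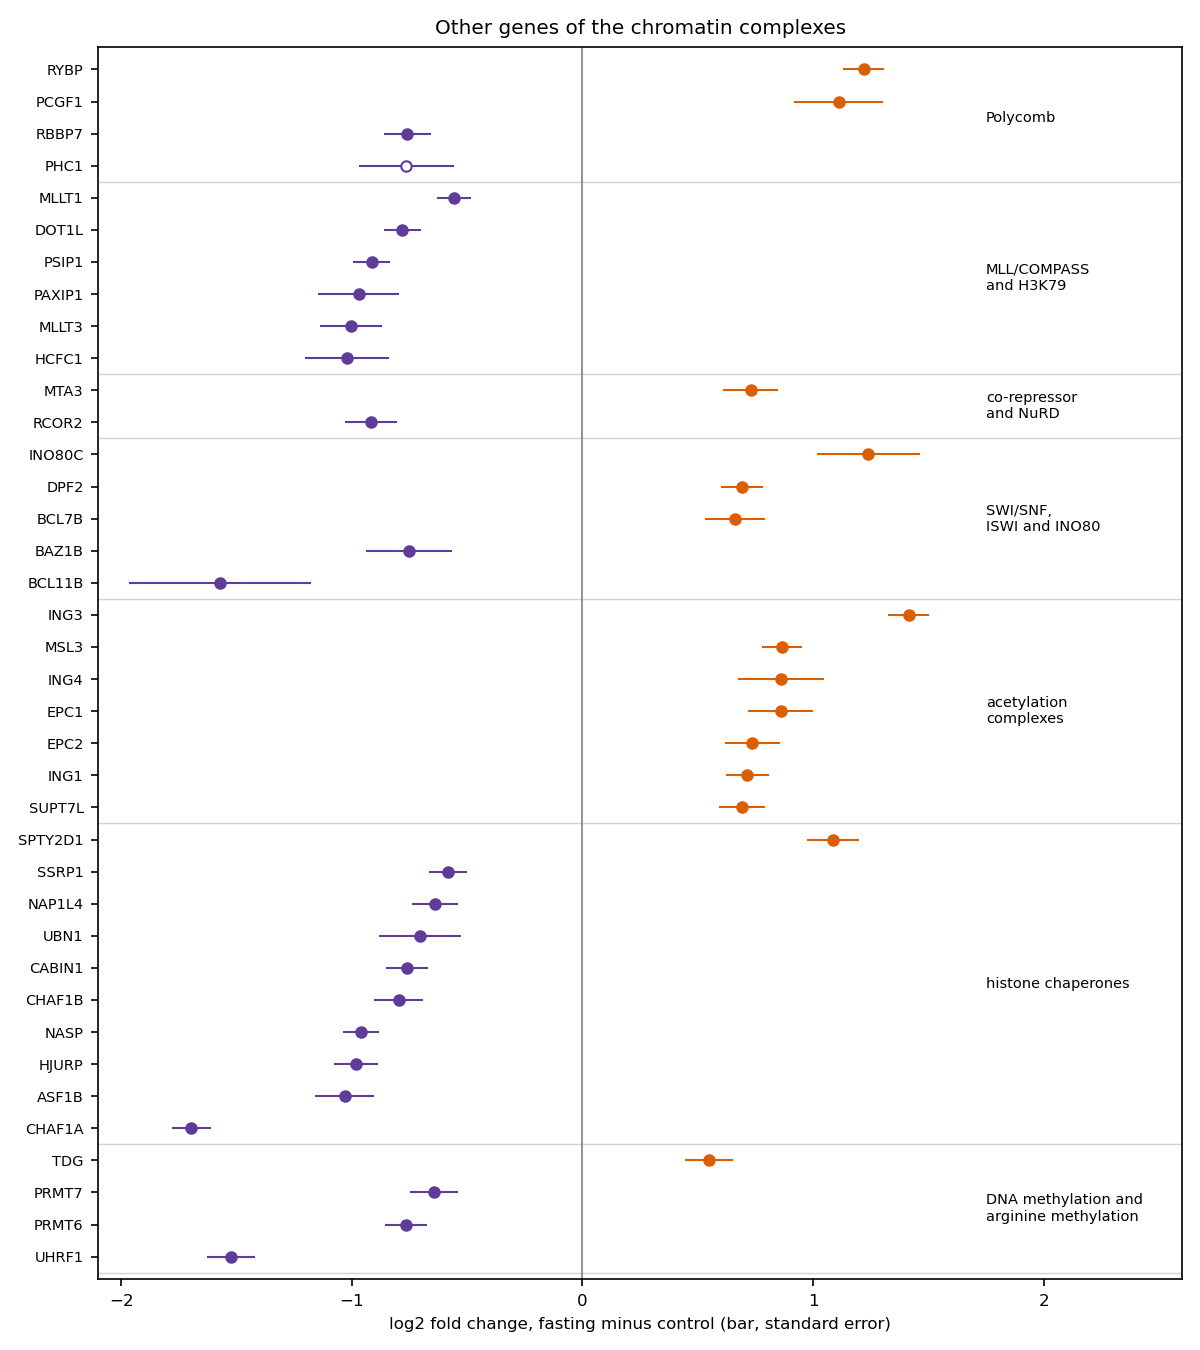
Log2 fold change, fasting over control, with its standard error for the 38 listed genes of 7 lists that the chosen symbols leave out; the open circle (PHC1) did not pass. The 6 MLL/COMPASS genes lie left of 0, the 7 acetylation genes lie right of 0, and 9 of 10 histone chaperones lie left of 0.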

How the data were processed

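RNA from RKO cells was made into directional libraries, per the labels' protocols, 3 for fasting medium and 3 for control medium. The table deposited by the authors gives per gene a signal, the normalized count, that is read counts divided by one size factor per library, beside columns deposited by the authors for their log2 ratio of the groups and for its p-value, raw and adjusted. Every normalized count was a whole multiple of the worth of 1 read in its library (100% of values within 0.01 read), so reads could be recovered; size factors were 0.727 to 0.956 for fasting and 1.01 to 1.41 for control libraries. The submitters' processing notes name DESeq 1.10.1, HTSeq 0.6.1 and UMI-tools 1.0.0, with no role; for the aligner, genome build and strand setting, none is given in the sources used here. Only genes with an adjusted p below 0.05 are listed, 11.8% of those tested, so total depth is unknown and a gene's absence says nothing about its level.

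Fasting and control libraries were compared with limma 3.58.1 (mean-variance trend, R 4.3.3) on log2(normalized count + 1), over genes averaging 1 or more in either group. P-values were two-sided and Benjamini-Hochberg adjusted over the 29845 genes tested by the authors, with unlisted genes at p = 1; fold changes are on that log2 scale, which understates low genes. The scripts were tested on simulated data. Alternatives were edgeR 4.0.16 and DESeq2 1.42.0 on the recovered reads, other scalings, pseudocounts and filters, no moderation, removal of each library's trend with transcript length (GENCODE 29), a replicate block, and each library left out in turn. One more was added after seeing the data.

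Per-library values are printed for the 6 largest rises and 8 largest falls among genes past the threshold with a mean of at least 50 in the higher group, and for a few more whose libraries disagree. Further genes named are the 2 smallest adjusted p per role, the first of the opposite direction and a fixed set, and the 2 smallest per list outside the chosen symbols; all remaining chromatin genes are given by fold change, and the genes with a JmjC domain were looked up after their values were seen. Some genes are counted but not reported here by name. Members and lists were chosen with earlier results of these data known. Sequences are from RefSeq.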

Additional observations from a re-analysis of the deposited data

How the results depend on the processing

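No chromatin gene reversed direction under any of 20 alternatives. The groups did not overlap for any of the 40, so only other scalings or removal of the length trend could have reversed one. Of the 40, 11 kept their call in all alternatives, among them CBX1, CBX2, DNMT1, EHMT1, EHMT2, HDAC9, HELLS, JMJD6, JMJD8 and NSD2. How many of all listed genes did so was not counted, so 11 of 40 is a description. Of all listed genes 74.4% passed under total-read scaling, 56.4% without moderation and 99.9% without fasting replicate 3. Shares without each other library were not counted. The 18 genes higher in fasting medium became 3 under total-read scaling and 10 without moderation of the variance, and 13 to 18 on leaving out 1 library. The 18 genes lower became 9 without moderation and 11 to 22 on leaving out 1 library, with 11 without control replicate 3. The median log2 fold change of −0.61 became −1.06 under total-read scaling, −0.39 with RLE scaling, −0.12 with the length trend removed, −0.44 in edgeR without fasting replicate 3, and −0.63 to −0.44 on leaving out 1 library. The 15 other chromatin genes that were higher became 5 under total-read scaling and 8 without moderation, and 12 to 15 on leaving out 1 library. The 22 that were lower became 17 without moderation and 17 with the length trend removed, and 19 to 23 on leaving out 1 library. The cause of these changes was not tested. Each fit with 1 library left out also has fewer degrees of freedom, and without fasting replicate 3 more chromatin genes passed. RLE scaling moved the median of all listed genes by 0.21. Same-numbered libraries correlated at 0.0313, 0.0318 and 0.0838 in their deviations from the group means, not every library correlated best with its own number, and the replicate block gave 18 higher and 20 lower chromatin genes, 15 and 23 of the others, and a median of −0.61. The table holds only genes the authors had called, so neither the share of chromatin genes that changed nor the absence of EZH2 or other unlisted genes can be read from it.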
